A study of Mus musculus with 6 samples.

Results

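The genes described here carry out mitosis: 49 mouse genes for cyclin B and CDK1, mitotic kinases, the spindle checkpoint, the kinetochore, spindle motors, condensin and cytokinesis. They were taken as the rows of the deposited table whose gene symbol is on a fixed list, 49 of 25865 genes, and were read in 7 groups by process. All 49 had enough reads to be tested, among 16223 genes with a mean normalised read count of at least 1. The samples were group 2 innate lymphoid cells (ILC2s), tissue lymphocytes that make type 2 cytokines, sorted from the large intestine of C57BL/6 mice. All cultures lasted 5 days in a mix of IL-33, IL-25, IL-7 and IL-2, with 10 ng/mL of every cytokine. The toyocamycin group (n = 3) then received toyocamycin, an adenosine analogue known to inhibit the stress sensor IRE1 and ribosomal RNA processing, for 16 h. The Control group (n = 3) received vehicle, and no treatment time of its own is recorded for it. Its dose is not stated by the labels or the design text. The labels give ILC2s in a cell line field, although the cells were primary, and do not say whether animals were pooled or whether replicates were separate cultures. The p-values thus reflect the spread among these particular samples, and that spread may be technical.

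Entry into mitosis is driven by cyclin B bound to CDK1, which CDC25 phosphatases switch on and WEE1 holds off. Condensin and topoisomerase II then compact and untangle the chromosomes, kinetochores attach them to spindle microtubules, and the spindle checkpoint holds back the anaphase-promoting complex until all are attached. Separase next cuts cohesin, and the central spindle and a contractile ring divide the cell. Many of these genes are transcribed mainly in G2 and mitosis, so their RNA is a common reading of how many cells in a culture are dividing.

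After toyocamycin, 42 of the 49 mitotic genes had lower RNA, 2 had higher RNA (Bub3 and Anln) and 5 did not pass the test (Aurka, Incenp, Pttg1, Kif18a and Ect2). With edgeR on the recovered reads, 42 were lower and 1 was higher (33.9% and 31.9% of all genes). Over all genes tested with limma, 33.1% were lower and 32.8% were higher, so the 85.7% lower among the mitotic genes stands against a wide change in both directions. The median log2 change, from limma on log2(normalised read count + 1), was -1.18 for the mitotic genes and -0.03 for all genes. Log2 changes of -1 or less were found in 27 members and 20.5% of all genes, and 6 members had a log2 change of -2 or less, against 7.84% of all genes. The summed share of normalised reads in these genes was 0.776%, 0.783% and 0.761% in Control and 0.277%, 0.274% and 0.270% in toyocamycin. In bulk RNA, fewer cells in mitosis and less RNA per mitotic cell cannot be told apart.

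The libraries held 25.5 M to 27.0 M reads in Control and 22.3 M to 36.7 M in toyocamycin. After the authors' normalisation the totals were 23.1 M to 23.7 M in Control and 29.1 M to 31.1 M in toyocamycin. Scaling all samples to equal totals moved the median log2 change of all genes from -0.03 to -0.35, and the members' median to -1.53. On that scale 47 members were lower, none was higher and 2 did not pass (Bub3 and Pttg1), against 42.5% of all genes lower and 24.9% higher. All 12 ILC2 markers examined were detected, with a summed level of 425665 to 438269 in Control and 358134 to 389111 in toyocamycin. Of these 12 genes, 4 were higher after toyocamycin and 7 were lower as deposited. The sum hides wide opposite changes: Rora was 13.1-fold higher and Il13 6.95-fold lower. Il17rb, counted as lower, did not pass with DESeq2 (adjusted p = 0.0705). Id2, also counted as lower, did not pass without Control replicate 3 (limma adjusted p = 0.0583) or without toyocamycin replicate 3 (adjusted p = 0.062). With equal totals, Il1rl1 turned from higher to lower (log2 change -0.09, limma adjusted p = 0.0066) and Thy1 passed as lower. Of 8 marker lists for other cells, 2 had high sums, which rested on Kit (99.98% of the mast cell sum) and Gzma (98.7% of the NK cell and ILC1 sum), and both sums were higher in toyocamycin. The mast cell sum was 29285 to 30746 in Control and 43106 to 46748 in toyocamycin, and the NK cell and ILC1 sum was 7258 to 7652 and 9534 to 10890. The other 5 mast cell genes reached at most 9.65 in any sample, with Fcer1a at 0 in all 6. Of the other NK cell and ILC1 genes, Ifng was at 0 in all samples and Prf1 went against the sum, with 154 to 221 in Control and 29.6 to 40.9 in toyocamycin. Among the epithelial genes Krt20 was at 0, while Epcam was at 117 to 150 and Krt8, Krt18, Krt19 and Cdh1 were also detected in every sample. The other 6 sums lay between 177 and 1609 in every sample. Of these, the T cell sum was higher in toyocamycin (322 to 370 against 414 to 488), where Cd3g, Trac and Trbc2 were higher and Cd3e and Cd3d lower. All marker sums are as deposited and were not scaled to equal totals. On that scale Cd3g (log2 change 0.06, limma adjusted p = 0.762) and Trbc2 (0.24, adjusted p = 0.322) did not pass. Cd3d, at 10.53 or less in every sample, did not pass with edgeR (adjusted p = 0.0556). The B cell sum was lower (367 to 470 against 187 to 223) and was 92.2% Cd79b. The fibroblast and endothelial sum was lower too (1371 to 1609 against 775 to 1127) and was 64.3% Pecam1. The ILC3, macrophage and epithelial sums did not separate or nearly touched, at 209 to 236 against 177 to 208, 889 to 1288 against 1082 to 1566, and 208 to 285 against 218 to 249. The part of other cells in the results was not tested.

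**Figure D1:**
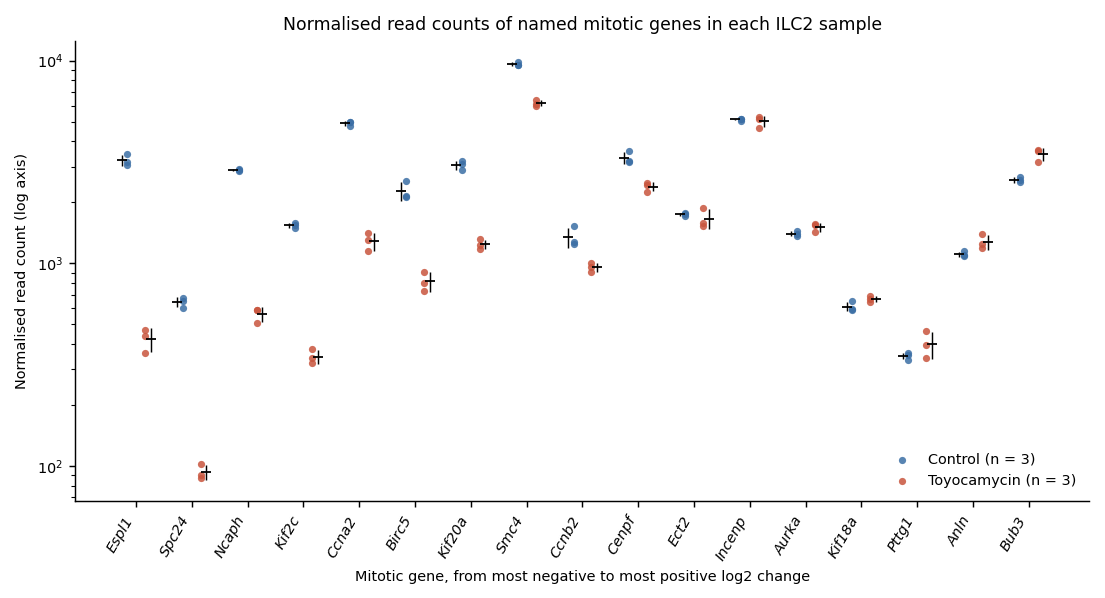
Normalised read counts of the members named in full, on a log axis, with 1 point per sample, 3 Control and 3 toyocamycin, and a cross for the mean with its SD. Espl1, Spc24, Ncaph, Kif2c and Ccna2 show a gap between the groups, while the Incenp, Aurka, Pttg1, Kif18a and Ect2 points overlap; after scaling to equal totals, Aurka, Incenp, Kif18a, Ect2 and Anln are lower.

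Late cell cycle genes share promoter letters known as the cell cycle genes homology region (CHR), which the MuvB complex binds, often near CCAAT boxes bound by NF-Y. MuvB with MYBL2 and FOXM1 activates these genes, and MuvB in the DREAM complex, with E2F4 and a pocket protein such as p107 (Rbl1), represses them. Promoter windows from 250 bases before to 50 bases after a RefSeq transcription start (GRCm38.p6) were matched for 40 of the 49 genes. The CHR letters TTTGAA or TTCGAA, on either strand, occurred in 31 of 40 member windows (77.5%) and in 19.4% of 27025 windows in the table. In 28 members they began within 50 bases of the start. CCAAT, on either strand, occurred in 29 of 40 member windows (72.5%) against 37.9% of all windows. Both occurred in 27 member windows (67.5%) against 7.7%. The median log2 change was -1.01 in the 31 genes with CHR letters and -1.29 in the 9 without, -0.91 with CCAAT and -1.48 without, and -0.91 with both and -1.36 in the rest; these differences were not tested. Of 6 members with a window that were not lower, 4 held CHR letters (Aurka, Bub3, Ect2 and Anln).

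The sequences below show these letters in the most lowered member of each process whose window holds them, and in Bub3, which was added after its values were seen because it was higher. Each runs 5′ to 3′ on the gene's strand from 150 bases before to 30 bases after the start, except Top2a, which begins 250 bases before. The positions are chr2:131186798-131186977 (+ strand) for Cdc25b, chr4:124936888-124937067 (- strand) for Cdca8, chr15:102296143-102296322 (+ strand) for Espl1 and chr2:69206184-69206363 (- strand) for Spc25. They are chr4:117178743-117178922 (- strand) for Kif2c, chr11:99024160-99024439 (- strand) for Top2a, chrX:100625915-100626094 (+ strand) for Kif4 and chr7:131560220-131560399 (+ strand) for Bub3. Capitals mark the CHR letters and the CCAAT box, each on either strand.
Cdc25b: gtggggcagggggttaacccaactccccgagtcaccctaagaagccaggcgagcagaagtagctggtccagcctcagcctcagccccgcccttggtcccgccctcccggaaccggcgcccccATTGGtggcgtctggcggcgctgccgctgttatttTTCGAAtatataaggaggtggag
Cdca8: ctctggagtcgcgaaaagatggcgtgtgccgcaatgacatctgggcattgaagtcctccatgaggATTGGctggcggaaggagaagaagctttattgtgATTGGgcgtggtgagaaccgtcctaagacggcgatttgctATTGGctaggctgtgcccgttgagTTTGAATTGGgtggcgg
Espl1: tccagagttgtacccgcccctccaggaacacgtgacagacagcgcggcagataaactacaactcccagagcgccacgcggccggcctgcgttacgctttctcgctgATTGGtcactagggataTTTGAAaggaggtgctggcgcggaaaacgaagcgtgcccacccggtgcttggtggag
Spc25: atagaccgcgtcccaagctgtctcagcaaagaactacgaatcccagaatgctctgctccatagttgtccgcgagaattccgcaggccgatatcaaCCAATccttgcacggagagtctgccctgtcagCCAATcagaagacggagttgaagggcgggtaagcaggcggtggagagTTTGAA
Kif2c: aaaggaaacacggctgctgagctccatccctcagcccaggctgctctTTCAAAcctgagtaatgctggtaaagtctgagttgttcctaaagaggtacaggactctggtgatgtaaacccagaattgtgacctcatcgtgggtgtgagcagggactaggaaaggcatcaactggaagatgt
Top2a: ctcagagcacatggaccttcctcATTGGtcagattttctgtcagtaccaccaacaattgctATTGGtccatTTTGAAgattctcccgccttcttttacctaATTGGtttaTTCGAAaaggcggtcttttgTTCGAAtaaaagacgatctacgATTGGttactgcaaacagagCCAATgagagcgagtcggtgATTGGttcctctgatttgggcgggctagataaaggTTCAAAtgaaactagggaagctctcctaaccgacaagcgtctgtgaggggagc
Kif4: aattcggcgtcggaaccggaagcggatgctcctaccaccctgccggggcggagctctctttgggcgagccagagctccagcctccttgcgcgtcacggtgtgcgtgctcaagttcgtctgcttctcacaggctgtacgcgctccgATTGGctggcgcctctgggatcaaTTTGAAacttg
Bub3: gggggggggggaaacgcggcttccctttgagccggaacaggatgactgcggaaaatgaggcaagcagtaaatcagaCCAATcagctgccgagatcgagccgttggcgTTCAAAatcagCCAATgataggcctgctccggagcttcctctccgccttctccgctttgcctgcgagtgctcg
In Cdca8 the CHR letters overlap a CCAAT box read on the other strand. Top2a holds 4 CHR matches and 6 CCAAT boxes in its window. The Kif2c window holds 1 CHR match, 103 bases before the start, and no CCAAT box within it, and that start lies inside the gene's full extent. The higher gene, Bub3, carries both kinds of letters, as the lowered Espl1 does. A match is a string of letters and does not show that a factor binds there.

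**Figure D2:**
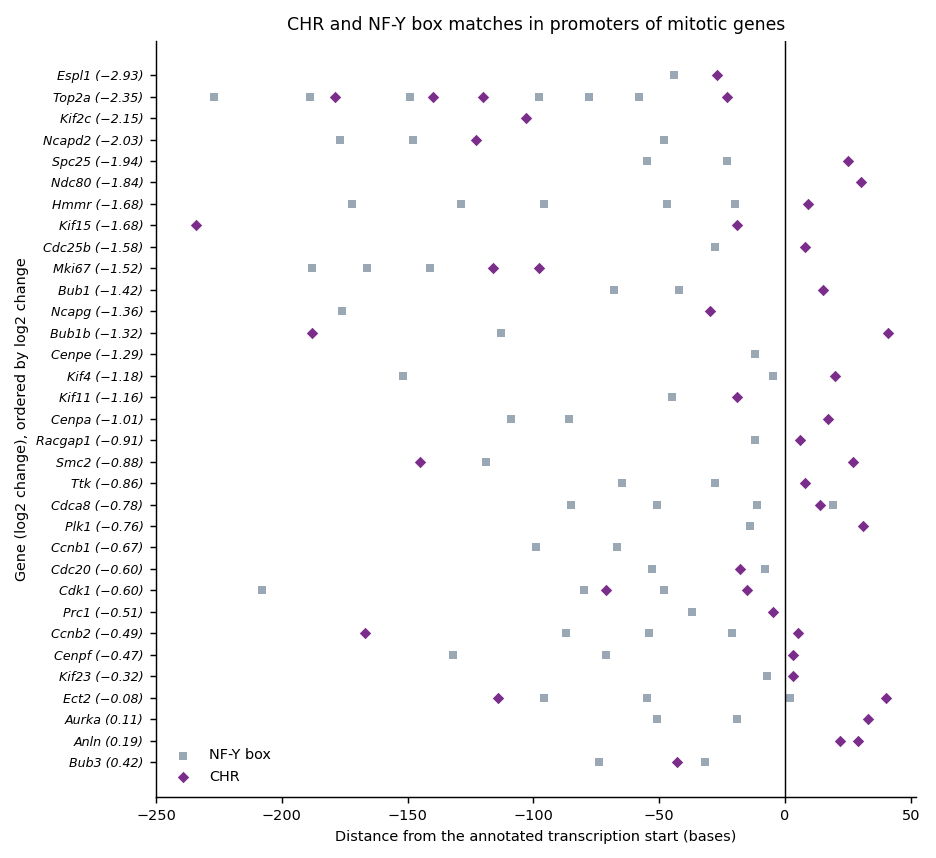
Positions of CHR letters and NF-Y boxes in the member promoter windows that hold either, in bases from the transcription start, with genes in rows. The CHR marks gather near the start: in 28 members at least 1 begins within 50 bases of it.

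All 7 cyclin and CDK1 switch genes fell, with a median log2 change of -0.67. Ccna2, cyclin A2, which pairs with CDK2 and CDK1 in S phase and G2, changed most in this group. Its normalised read counts were 4763, 4981 and 4990 in Control and 1298, 1406 and 1145 in toyocamycin. Every toyocamycin sample lay far below every Control sample, 3.83-fold lower in mean (log2 change -1.94, SE 0.07, limma adjusted p = 3.86e-16). Ccnb2, cyclin B2, changed least, with 1268, 1252 and 1519 in Control and 907, 1005 and 962 in toyocamycin (log2 change -0.49, SE 0.08, adjusted p = 1.76e-05). The groups did not overlap, but 1 Control sample stood above the other two. Cdk1, the kinase itself, was 1.51-fold lower and Ccnb1, cyclin B1, was 1.59-fold lower. Of the activating phosphatases, Cdc25b was 2.98-fold lower and Cdc25c 2.90-fold lower. Cdc25a, which is in a further list and not a member, was only 1.24-fold lower. Wee1, an inhibitory kinase, was 1.44-fold lower, whereas Pkmyt1, another inhibitory kinase in that further list, was 3.72-fold lower. Within each sample the Cdk1 level relative to the mean of Ccnb1 and Ccnb2 differed by -0.02 on the log2 scale between the groups (exact permutation p = 0.8, two-sided).

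Among the mitotic kinases and the chromosomal passenger complex, 4 of 6 genes fell and 2 did not pass. Birc5 (survivin), which anchors the complex at centromeres, had 2140, 2113 and 2552 in Control and 799, 908 and 733 in toyocamycin. The groups were well apart, and Birc5 was 2.79-fold lower in mean (log2 change -1.48, SE 0.08, adjusted p = 1.43e-12). Aurkb, its catalytic subunit Aurora B, was 2.75-fold lower, with 1957 to 2033 in Control and 682 to 759 in toyocamycin. Cdca8 (borealin), whose promoter is printed above, was 1.71-fold lower. Incenp, the scaffold that joins the other subunits, had 5149, 5062 and 5164 in Control and 5247, 5125 and 4664 in toyocamycin. Those groups overlap, and the log2 change was -0.03 (95% interval -0.15 to 0.08, adjusted p = 0.607); with equal totals it was -0.38 and passed (adjusted p = 1.01e-06). Relative to the mean of the other 3 subunits, Incenp was 1.21 higher on the log2 scale after toyocamycin, a value no choice of sample scaling alters. Plk1, the kinase of mitotic entry and centrosomes, was 1.68-fold lower, whereas Aurka (Aurora A), which matures centrosomes, had 1388, 1444 and 1364 in Control and 1420, 1546 and 1558 in toyocamycin. Its groups overlap, with a log2 change of 0.11 (95% interval -0.03 to 0.25, adjusted p = 0.164) that turns to -0.24 with equal totals (adjusted p = 0.00161).

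In the checkpoint and separase group, 6 of 8 genes fell, 1 rose and 1 did not pass. Espl1, separase, which cuts cohesin at anaphase (chr15:102296254-102324357), had the most negative change of all 49 genes. It had 3164, 3458 and 3038 in Control and 470, 439 and 361 in toyocamycin. Its mean was 7.61-fold lower with no overlap (log2 change -2.93, SE 0.09, adjusted p = 3.84e-17). Pttg1, securin, which holds separase inactive, had 334, 355 and 359 in Control and 461, 395 and 340 in toyocamycin. 1 toyocamycin sample lay among the Control samples, and the log2 change of 0.18 did not pass (95% interval -0.07 to 0.43, adjusted p = 0.204). Without that sample, toyocamycin replicate 3, it was 0.29 (adjusted p = 0.043), and with equal totals it was -0.17 (adjusted p = 0.217). The log2 ratio of Espl1 to Pttg1 reads went from 3.20 ± 0.11 in Control to 0.09 ± 0.06 in toyocamycin (SD, n = 3), the widest shift of any ratio computed.

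Bub3, which brings BUB1 and BUBR1 to kinetochores, had 2564, 2511 and 2679 in Control and 3566, 3640 and 3157 in toyocamycin. All 3 toyocamycin samples lay above all Control samples, and the log2 change of 0.42 passed (SE 0.06, adjusted p = 3.72e-06), but with equal totals it was 0.07 and did not (adjusted p = 0.252). Its partners fell: Bub1 was 2.68-fold lower, Bub1b (BUBR1) 2.50-fold lower and Mad2l1 (MAD2) 2.39-fold lower. Ttk (MPS1), the kinase that starts the checkpoint, was 1.82-fold lower, and Cdc20, the activator of the anaphase-promoting complex that the checkpoint inhibits, was 1.51-fold lower. Within the mitotic checkpoint complex, Bub3 relative to the mean of Bub1b, Mad2l1 and Cdc20 was 1.48 higher on the log2 scale after toyocamycin.

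**Figure D3:**
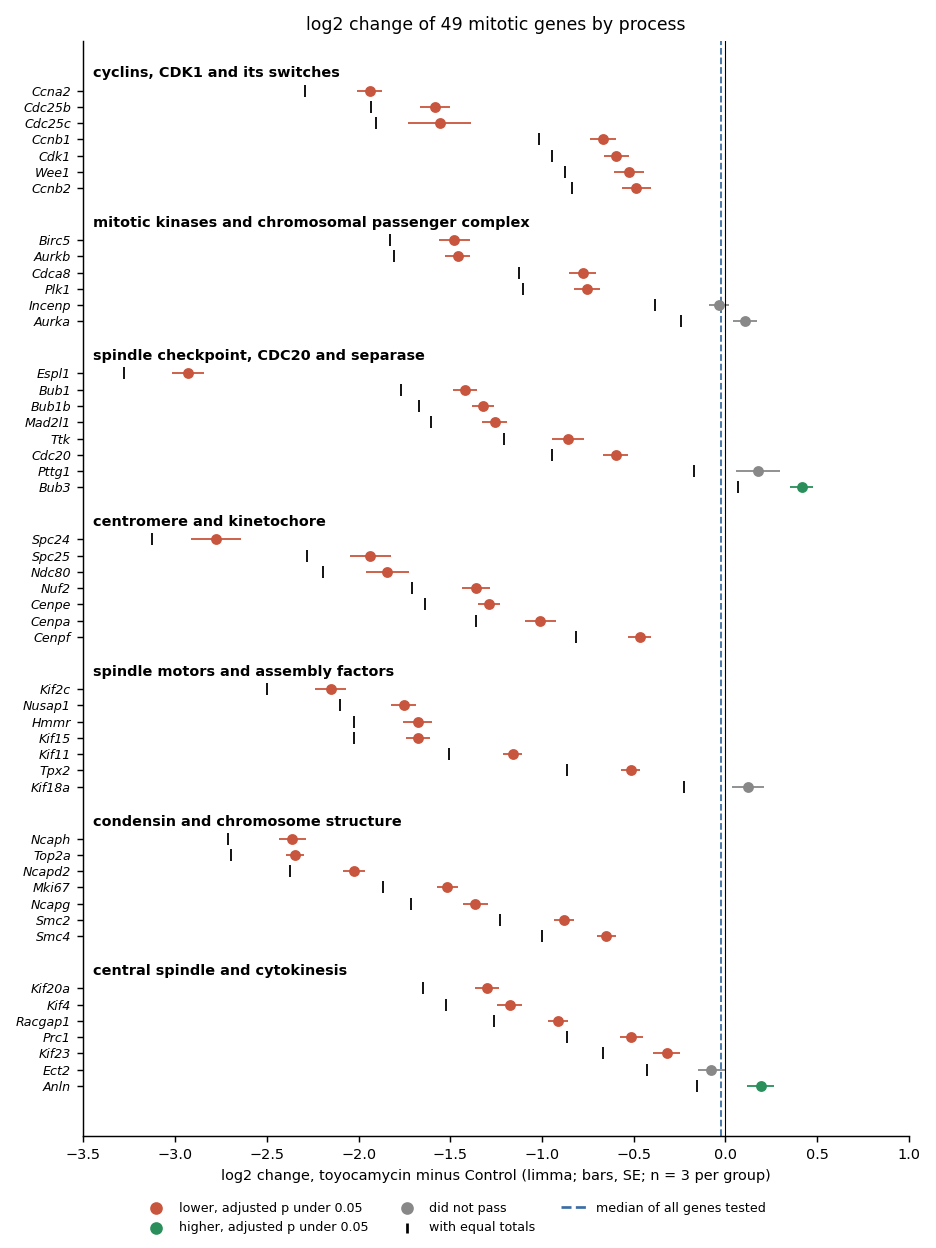
Log2 change of each of the 49 members between toyocamycin and Control, grouped by process, with bars for the SE from limma, short ticks for the change with equal totals and a dashed line at the median of all genes (-0.03). Most points lie left of 0 in every group; Bub3 and Anln lie right of it, and with equal totals Bub3 is at 0.07 and does not pass and Anln is at -0.16 and lower.

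All 7 centromere and kinetochore genes fell (median log2 change -1.36). Spc24, 1 of 4 subunits of the NDC80 complex that holds microtubules, had 654, 602 and 673 in Control and 87.2, 89.8 and 102 in toyocamycin. That was 6.92-fold lower in mean, with the groups far apart (log2 change -2.78, SE 0.14, adjusted p = 8.81e-14). The other subunits fell by unequal amounts: Spc25 was 3.80-fold lower, Ndc80 3.54-fold lower and Nuf2 2.57-fold lower. Relative to the mean of the other 3, Spc24 was 1.07 lower and Nuf2 0.83 higher on the log2 scale, while Ndc80 and Spc25 differed by 0.18 and 0.06 (exact permutation p = 0.5 and p = 0.7, two-sided). Cenpa, the histone H3 variant of centromeres, was 2.02-fold lower, and Cenpe, a kinetochore kinesin, was 2.44-fold lower. Cenpf, a protein of the outer kinetochore, changed least, with 3213, 3566 and 3154 in Control and 2487, 2437 and 2251 in toyocamycin. It still passed with no overlap (log2 change -0.47, SE 0.06, adjusted p = 8.43e-07).

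Among spindle motors and assembly factors, 6 of 7 fell, and the median log2 change of -1.68 was the most negative of the 7 processes. Kif2c, a kinesin that shortens microtubules at kinetochores, had 1485, 1576 and 1549 in Control and 339, 377 and 321 in toyocamycin. Its mean was 4.45-fold lower with no overlap (log2 change -2.15, SE 0.09, adjusted p = 2.87e-15). Nusap1, which bundles spindle microtubules, was 3.38-fold lower. Kif15, a motor that helps keep the poles apart, was 3.20-fold lower, and Kif11 (Eg5), the main motor for that task, was 2.24-fold lower. Hmmr, a spindle assembly factor, fell with a log2 change of -1.68. Tpx2, which activates Aurora A on the spindle, was 1.43-fold lower. Kif18a, a kinesin that limits chromosome swings at the metaphase plate, had 589, 596 and 649 in Control and 666, 689 and 641 in toyocamycin. Its groups overlap; the log2 change was 0.12 (95% interval -0.06 to 0.30, adjusted p = 0.228) and turned to -0.23 with equal totals (adjusted p = 0.0156).

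All 7 condensin and chromosome structure genes fell (median log2 change -1.52). Ncaph, the subunit that closes the condensin I ring, had 2915, 2873 and 2858 in Control and 589, 590 and 505 in toyocamycin. The fall was 5.13-fold in mean, with no overlap (log2 change -2.36, SE 0.07, adjusted p = 6.14e-17). Top2a, topoisomerase II alpha, which untangles sister DNA and whose promoter is printed above, had 22534, 23538 and 23081 in Control and 4575, 4599 and 4431 in toyocamycin. It was 5.08-fold lower (adjusted p = 3.62e-19), close to Ncaph in size. Ncapd2, a HEAT-repeat subunit found only in condensin I, was 4.06-fold lower, and Ncapg, the other such subunit, was 2.57-fold lower. Smc4, an ATPase arm shared by condensin I and II, changed least, with 9530, 9543 and 9883 in Control and 6089, 6387 and 5998 in toyocamycin (log2 change -0.65, SE 0.05, adjusted p = 1.54e-10). Its partner arm Smc2 was 1.84-fold lower. Within condensin I, Smc4 was thus 1.01 higher and Smc2 0.72 higher on the log2 scale relative to the mean of the other subunits, while Ncaph was 1.13 lower and Ncapd2 0.71 lower. Mki67, which coats mitotic chromosomes and is used as a proliferation marker, was 2.87-fold lower.

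Central spindle and cytokinesis genes had the median nearest 0 of the 7 processes: 5 of 7 fell, 1 rose and 1 did not pass, with a median log2 change of -0.51. Kif20a, which carries the passenger complex to the central spindle, had 3088, 3182 and 2888 in Control and 1182, 1312 and 1225 in toyocamycin. The mean was 2.46-fold lower with no overlap (log2 change -1.30, SE 0.06, adjusted p = 1.01e-13). Kif4, a chromosome-bound kinesin that also acts at the central spindle, was 2.26-fold lower. Prc1, which bundles central spindle microtubules, was 1.43-fold lower. Racgap1 and Kif23, the pair that forms centralspindlin, were 1.88-fold and 1.25-fold lower. Ect2, which centralspindlin recruits to activate RhoA, had 1772, 1708 and 1755 in Control and 1527, 1881 and 1578 in toyocamycin. The toyocamycin samples lay on both sides of Control, and the log2 change was -0.08 (95% interval -0.23 to 0.08, adjusted p = 0.381). It passed as lower with equal totals (log2 change -0.43, adjusted p = 1.37e-05) and without toyocamycin replicate 2 (log2 change -0.17, adjusted p = 0.026). Anln, anillin, which links actin and septins in the contractile ring, had 1084, 1144 and 1102 in Control and 1186, 1391 and 1238 in toyocamycin. The groups stood close but apart, and the log2 change of 0.19 passed (SE 0.07, adjusted p = 0.0261). With equal totals it was -0.16 and lower (adjusted p = 0.0329), and it did not pass without Control replicate 1 (adjusted p = 0.0972), Control replicate 3 (adjusted p = 0.0661) or toyocamycin replicate 2 (adjusted p = 0.121).

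In all, 44 of the 49 members had groups that did not overlap, 42 lower and 2 higher, where 34.9% and 34.2% of all genes did so. For 9 members at least 5% of the 50-base stretches of their transcripts also occur in transcripts of another gene, so reads could be divided between them. These are Ccna2 (11.4%), Ccnb1 (23.4%), Cdc25c (11.9%), Plk1 (10.4%), Cdc20 (10.6%), Ncapg (11.8%), Kif20a (25.2%), Kif4 (14.5%) and Prc1 (9.77%), and their values are uncertain by an amount that was not measured. For 6 of them the other gene lies on the opposite strand: Exosc9 for Ccna2, Gm3550 for Cdc25c, Lcorl for Ncapg, Cdc23 for Kif20a, Pdzd11 for Kif4 and Rccd1 for Prc1. No source used here states the strand setting of the counting.

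Levels were also read as ratios between subunits of a complex. Of 22 ratios within 7 complexes, 16 had Control and toyocamycin samples that did not overlap; among the levels of all genes, 34.9% did not overlap with toyocamycin lower and 34.2% with toyocamycin higher, so the count by itself is near the background. The 3 cyclin B and CDK1 ratios overlapped. With 3 against 3 the smallest two-sided exact permutation p is 0.1, which all 16 reached, so none could pass 0.05, and the adjusted value was 0.138. Ratios between subunits do not depend on the scaling of a sample. The cyclin B and CDK1 ratios moved by 0.15 or less on the log2 scale, and the chromosomal passenger, NDC80, condensin I and checkpoint complexes each held a subunit that moved by more than 1 against its partners.

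**Figure D4:**
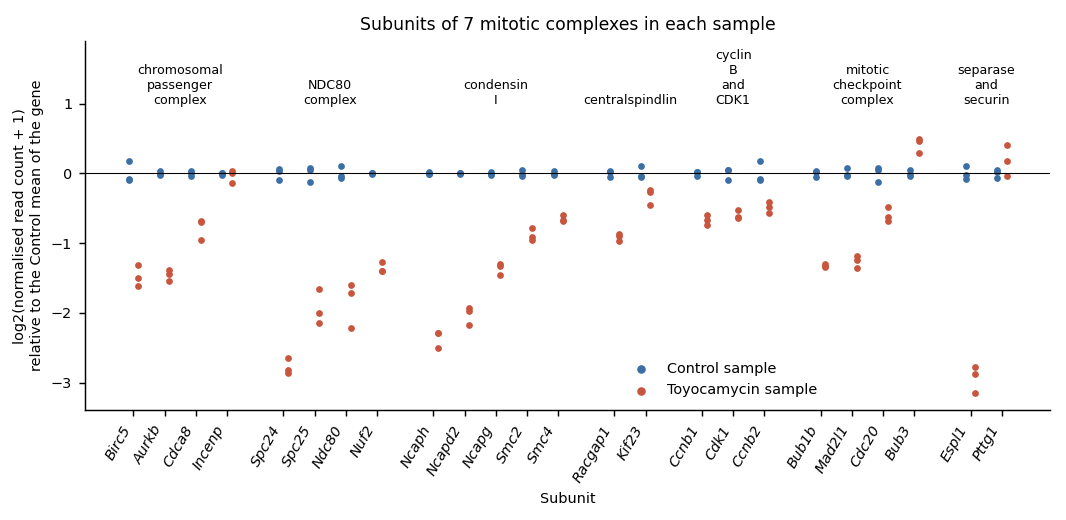
Log2(normalised read count + 1) of each subunit in each sample, relative to the Control mean of that gene, for 7 complexes, with 1 point per sample. Within a complex the toyocamycin points stand at unequal depths, as for Espl1 and Pttg1, whose log2 ratio differed by -3.11 between the groups, while Cdk1, Ccnb1 and Ccnb2 stand near each other; the height of all points depends on the sample scaling, the gaps between genes do not.

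The lists of other mitotic genes, 133 genes in 9 lists with no member among them, held 77 lower and 37 higher genes, and 19 did not pass. The counts of each list below stand against 33.1% lower and 32.8% higher among all genes tested. Their median log2 change was -0.54. In the outer kinetochore and SKA list, 12 of 15 genes fell and none rose. Mad1l1, counted among the lower genes, had overlapping groups (log2 change -0.21, limma adjusted p = 0.0475) and did not pass with DESeq2 (adjusted p = 0.099). Kntc1, a subunit of the RZZ complex that loads checkpoint proteins, had 3033, 3230 and 2932 in Control and 181, 150 and 164 in toyocamycin, and was 18.6-fold lower (log2 change -4.21, SE 0.09, adjusted p = 4.47e-19). This was a wider gap than any of the 49 members showed. Ska1, which couples kinetochores to moving microtubule ends, was 8.12-fold lower, while Spdl1, which brings dynein to kinetochores, had a log2 change of -0.02 (adjusted p = 0.854). With equal totals Spdl1 was lower (log2 change -0.37, adjusted p = 9.10e-04). In the inner kinetochore and CENP-A loading list, 11 of 17 fell and 2 rose. Cenpm was 12.8-fold lower and Cenph 8.82-fold lower, whereas Cenpc1 (CENP-C), which binds the CENP-A nucleosome, had a log2 change of -0.03 (adjusted p = 0.754). With equal totals Cenpc1 was lower (log2 change -0.38, adjusted p = 1.20e-04).

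All 3 condensin II genes fell: Ncapd3 was 3.04-fold lower, Ncapg2 2.55-fold lower and Ncaph2 1.74-fold lower. Of 16 genes for cohesin and its regulators, 5 were lower and 9 higher (all genes, 33.1% and 32.8%); equal totals gave 8 lower and 8 higher (all genes, 42.5% and 24.9%). Nipbl, which loads cohesin onto DNA, rose from 5589, 5792 and 5185 in Control to 18272, 18633 and 17295 in toyocamycin, a 3.27-fold higher mean with no overlap (log2 change 1.71, SE 0.05, adjusted p = 6.71e-17). Esco2, which acetylates cohesin in S phase, was 3.75-fold lower. Sgo2a, a protector of centromeric cohesin, had a log2 change of 0.06 (adjusted p = 0.538) that equal totals turned to -0.29.

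Among anaphase-promoting complex genes 8 of 18 were lower and 6 higher, not far from the 33.1% and 32.8% of all genes. Fbxo5 (EMI1), an inhibitor of that complex, was 3.80-fold lower and Ube2c, the ubiquitin carrier it uses, was 3.08-fold lower. Anapc10, a subunit of it, had a log2 change of -0.02 (adjusted p = 0.883), but with equal totals Anapc10 was lower (log2 change -0.37, adjusted p = 0.00565). Further entry and exit regulators comprised 7 lower and 4 higher genes of 11. Ccnf (cyclin F) was 4.21-fold lower and Bora, which helps Aurora A activate PLK1, was 4.11-fold lower, and Ensa, a phosphatase inhibitor, changed least (log2 change -0.30, adjusted p = 3.23e-04).

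Further spindle and centrosome genes were lower in 21 of 29 cases and higher in 5. Haus5 and Haus1, subunits of the augmin complex that branches spindle microtubules, were 9.55-fold and 4.73-fold lower, and 53.1% of Haus5 transcript stretches also occur in another gene. Cep152, a centriole duplication factor, had a log2 change of 0.01 (adjusted p = 0.92) that equal totals turned to -0.34. Further cytokinesis genes were lower in 5 of 10 cases and higher in the other 5, where 33.1% and 32.8% of all genes were so called. Diaph3, a formin, was 4.30-fold lower and Stmn1, which destabilises microtubules, was 3.77-fold lower. Stretches shared with other genes also made up at least 5% in Fbxo5 (8.71%), Ube2c (16%), Sgo2a (34%), Ncaph2 (22.6%) and Stmn1 (18.9%). The same held for Pkmyt1 (5.88%) and for Rbl2 (17.1%) and Rbbp4 (17.2%), which are named below. Arhgap11a, a RhoA regulator, had a log2 change of 0.20 and was higher (adjusted p = 0.00213), but with equal totals it had -0.14 and was lower (adjusted p = 0.00428).

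The list of MuvB, FOXM1 and DREAM regulators comprised 5 lower genes of 14, 6 higher and 3 that did not pass, near the 33.1% and 32.8% of all genes. Foxm1 had 2995, 3077 and 2992 in Control and 555, 492 and 501 in toyocamycin, 5.85-fold lower with no overlap (log2 change -2.55, SE 0.07, adjusted p = 1.09e-17). Rbl1, the pocket protein p107, had 3995, 4222 and 4125 in Control and 559, 541 and 415 in toyocamycin, 8.15-fold lower. Rbl2, the pocket protein p130, was only 1.16-fold lower, with a mean of 10379 in Control and 8930 in toyocamycin. The 6 higher genes were Dyrk1a (3.46-fold), Lin52 (2.28-fold), E2f5 (2.12-fold), Tfdp2 (2.05-fold), Lin54 (1.46-fold) and Rbbp4 (1.41-fold). The activator Foxm1 and the repressor Rbl1 were thus both lowered, but other genes of the list were not. E2f4, which recruits DREAM to promoters, had a log2 change of -0.01 (adjusted p = 0.876), but with equal totals it was lower (log2 change -0.36, adjusted p = 9.16e-07).

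**Figure D5:**
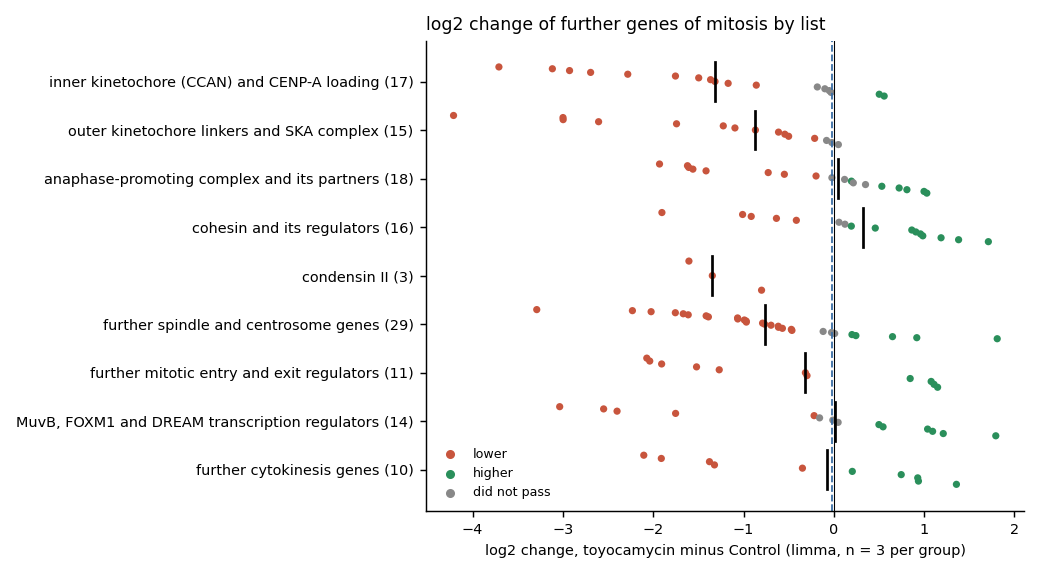
Log2 change of each gene in the 9 lists of other mitotic genes, 1 point per gene coloured by its call, with a bar at each list median and a dashed line at the median of all genes. The kinetochore and condensin II lists lie mostly below 0, the anaphase-promoting complex and MuvB lists have medians near 0, and cohesin has a median of 0.33, which is -0.02 with equal totals.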

How the data were processed

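RNA sequencing of 6 samples was used, 3 per group, grouped by the labels. The authors used cutadapt 4.7, FastQC and the build mm10, per the submitters' processing notes. No source used here states the aligner, counter or strand setting. Though its name says FPKM, the table the authors deposited holds a normalised signal: 100% of the values in each sample were whole multiples of the value of 1 read, within 0.01 reads. The deposited values were therefore read as counts divided by 1 size factor per sample.

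Values were tested as log2(normalised read count + 1) with limma 3.58.1 (R 4.3.3, mean-variance trend), two-sided, for genes averaging at least 1, with Benjamini-Hochberg adjustment over 16223 genes and a threshold of 0.05. This pseudocount understates changes of low genes. The test was checked on simulated data in which few genes changed, equally in both directions, and the sample scaling was known. That check does not cover the wide change or the uncertain scaling of these data. Folds are ratios of group means. SE values and 95% intervals are from limma. edgeR 4.0.16 and DESeq2 1.42.0 were run on the recovered reads as alternatives, beside other pseudocounts, filters, equal totals, a replicate block and each sample left out. Replicates of 1 group differed beyond counting noise (lowest chi-square per degree of freedom 3.867), which does not show that they are independent. All samples were kept. Same-numbered samples did not deviate together (correlations -0.030, 0.052 and -0.089 over 12913 genes), so numbers were not taken as pairs.

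The members, lists and tests were chosen with earlier results of these data known. Genes given with full values are, in each process, the members with the most negative and most positive change and each member that was higher or did not pass. Top2a and Aurkb were added after their values were seen. In each further list, the genes chosen by rule are the 2 genes with the largest change that passed and the gene with the smallest. Cdc25a, Pkmyt1, Rbl2 and the higher genes of the MuvB list were also named after their values were seen. Coordinates and promoters are from RefSeq (GRCm38.p6). Shared 50-base stretches were counted over GENCODE transcripts.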

Additional observations from a re-analysis of the deposited data

How the results depend on the processing

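All 42 members called lower kept that call in each of 14 alternatives, 6 of which left out 1 sample. The count of members higher, 2 as reported, was 0 with equal totals and 1 with edgeR, and 1 to 3 with 1 sample left out. In the checkpoint group, 1 higher gene became 0 with equal totals and 1 to 2 with 1 sample left out. In the cytokinesis group, 1 higher gene became 0 with equal totals and 0 with edgeR, and 0 to 1 with 1 sample left out. Equal totals also gave 1 higher gene in place of 2 in the inner kinetochore list, 8 lower in place of 5 for cohesin, 3 higher in place of 5 for spindle and centrosome genes, and 8 lower in place of 5 for the MuvB list. The shift in the median of all genes (-0.321) is built into that scaling. Log2 changes that reversed with equal totals were those of Aurka (-0.24), Pttg1 (-0.17), Kif18a (-0.23), Anln (-0.16), Arhgap11a (-0.14), Cep152 (-0.34) and Sgo2a (-0.29). Incenp, Ect2, E2f4, Cenpc1, Spdl1 and Anapc10 kept their sign but passed as lower on that scale, where they had not passed as deposited. With edgeR, Cep152 reversed to -0.043. Values near 0 also changed sign with 1 sample left out, in ranges given next, and none of these passed: Incenp -0.068 to 0.017, Anapc10 -0.076 to 0.049, Cenpc1 -0.098 to 0.07, Cep152 -0.003 to 0.033, E2f4 -0.064 to 0.043 and Spdl1 -0.137 to 0.038. DESeq2, both other pseudocounts and both other filters changed no call of these genes.

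The replicate block gave 42 members lower and 2 higher, and Espl1 kept a log2 change of -2.93. It changed no call among the 76 genes that are members or were chosen from the lists by rule, and same-numbered samples did not pair. Outside these, Cd3g and Mad1l1 did not pass with the block (limma adjusted p = 0.0592 and 0.0538).

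Depth does not limit members with this many reads. The limits lie in 3 samples per group, in replicates of unstated origin, in the unknown dose, and in the scaling, which changes the call of 6 members (Aurka, Incenp, Bub3, Kif18a, Ect2 and Anln). Reads shared between genes or strands could not be reassigned.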

Other observations

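Subunits of 2 further complexes are described here, chosen after their values were seen. Of all genes tested, 33.1% were lower and 32.8% higher (42.5% and 24.9% under equal totals), so these counts show nothing particular to the complexes. Of the 8 augmin (HAUS) genes, 5 were lower and 3 were higher, both as deposited and with equal totals. Haus3 had 925, 1038 and 1117 in Control and 3436, 3903 and 3448 in toyocamycin, 3.50-fold higher with no overlap (log2 change 1.81, SE 0.07, limma adjusted p = 4.20e-15), against the 9.55-fold lower Haus5. Of 14 subunits of the anaphase-promoting complex, 5 were lower, 6 were higher and 3 did not pass, against 8 lower and 5 higher with equal totals. Cdc27, which binds the complex's activators, was 2.04-fold higher. Anapc5, a scaffold subunit, had a log2 change of -1.61.

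Among the 5 core cohesin genes, also chosen after their values were seen, 4 were higher (Smc3, Rad21, Stag1 and Stag2) and Smc1a was lower. These calls were the same as deposited and with equal totals. Of all genes tested, 32.8% were higher and 33.1% lower as deposited, and 24.9% and 42.5% with equal totals. The difference from these shares was not tested. Of single genes also picked after their values were seen, Cdkn1a (p21), an inhibitor of cyclin-dependent kinases, was 2.16-fold higher, and Gtse1, a G2 and mitosis gene, was 2.11-fold higher while most late cell cycle genes were lower. Mybl2 (B-MYB), a MuvB partner, was 5.30-fold lower, and 19.3% of its transcript stretches also occur in another gene, as do 8.49% of those of Cdkn1a.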
